A study of Mus musculus with 6 samples.

Results

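The genes described here copy DNA or carry a cell from the G1 phase into S phase. They were chosen by name: a row of the count table belongs to the group if its gene symbol is one of 44 listed symbols, and all 44 were found among the 23366 genes of the table. The RNA came from cultured cerebellar granule neurons, taken from C57BL/6 mice at postnatal day 7 and infected with a lentivirus built on the vector pLKO.1 on day 1 in vitro. Control cultures (n = 3) received the empty vector, and knockdown cultures (n = 3) received the vector with 1 hairpin RNA against Kdm6b, a demethylase of lysine 27 on histone H3. The empty vector carries no hairpin, so lower Kdm6b and the presence of any hairpin cannot be told apart. Neither the cultures that received BDNF, which was added to some, nor the day of harvest can be read from the labels. The series' design text calls the samples biological replicates. The sample titles number them 1 to 3 in each group, and no label says that a number marks a shared litter or day.

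Before S phase, the origin recognition complex, Cdc6 and Cdt1 load the MCM helicase onto DNA. Cyclin-dependent kinases then start the helicase, DNA polymerases copy both strands, and ribonucleotide reductase and other enzymes supply the nucleotides. D-type cyclins with Cdk4 and Cdk6, and E-type cyclins with Cdk2, inactivate the retinoblastoma protein and so release E2F factors, which activate most of the genes listed here. In the early postnatal cerebellum, granule neuron precursors divide in the external granular layer under sonic hedgehog before they leave the cell cycle. A young granule neuron culture can therefore hold dividing precursors beside neurons that no longer divide, and glial or vascular cells that divide.

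Gene counts summed to between 50326298 and 88214069 per library, and the lowest count of any of the 44 genes in any library was 34. Levels are CPM, counts divided by library totals that TMM factors had corrected for composition. Kdm6b itself was at 257, 146 and 170 CPM in control replicates 1 to 3 and at 88.8, 63.3 and 79.8 CPM in knockdown replicates 1 to 3, so the targeted RNA was lower in every library that carries the hairpin than in any control. Markers of granule neurons summed to between 4564 and 6559 CPM in the controls and between 4756 and 6965 CPM in the knockdowns, so the labelled cell type was present in all 6 libraries. Markers of pericytes and fibroblasts summed to between 13141 and 26363 CPM in the controls and between 4328 and 11936 CPM in the knockdowns, so RNA of other cells was abundant too, and lower in the knockdowns.

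Ribonucleotide reductase subunit Rrm2 had the largest difference of the 44 genes, with log2 fold change −2.70 in the fit that pairs libraries by replicate number, and the helicase subunit Mcm5 and the polymerase subunit Pola1 fell with it. E2f2, an E2F activator, rose. All 4 calls need the pairing: without it edgeR's quasi-likelihood test called none of the 44 genes at an adjusted p of 0.05, where it called 1 gene in the whole transcriptome, or 0.00636% of the 15731 genes tested. DESeq2 and limma-voom without the block also called 0 of the 44. With the replicate number as a block it called 3 of the 44 lower, against 5.40% of all genes tested, and 1 higher, against 2.58%. Unadjusted p-values without the block were under 0.05 for 1 gene that was lower (Rrm2), against 5.80% of all genes, and for 0 that were higher, against 4.75%. The block changed the size of these differences little and narrowed their errors, as for Rrm2 from an SE of 0.87 to 0.30. In these bulk libraries fewer dividing cells and less RNA per dividing cell cannot be told apart.

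Small differences in 1 direction were common. The fitted log2 fold change was below 0 for 39 of the 44 genes and above 0 for 5, with a median of −0.35 (−0.37 with the block), beside a median of 0.02 over all genes tested in both fits. Of all 15731 genes tested, 7468 had a value below 0 without the block and 7536 with it. The size of the unblocked median rested on single libraries: it was −0.11 without knockdown replicate 1, with 29 genes below 0 and 15 above, −0.22 without control replicate 3, −0.23 without control replicate 2, −0.58 without control replicate 1 and −0.59 without knockdown replicate 3. Groups did not overlap for 1 gene that was lower in the knockdowns, Rrm2, against 7.44% of all genes tested, and for 0 that were higher, against 9.21%. The knockdown library was the lower of its replicate pair in all 3 pairs for 26 of the 44 genes, against 28.5% of all genes, and the higher in all 3 for 1 gene, E2f2, against 31.8%. Read against these shares, the edgeR calls with the block lie near the background and the count lower in every pair lies above it. DESeq2 with the same block called 18 of the 44 lower, against 14.4% of all genes. The shift was unequal among the pairs: the median difference in log2 CPM was −0.34 in pair 1, −0.61 in pair 2 and −0.09 in pair 3, and 40, 40 and 26 of the 44 genes were lower in the knockdown library of pairs 1, 2 and 3. Of all 15731 genes tested, 7593, 7858 and 7284 were lower in the knockdown library of these pairs.

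**Figure D1:**
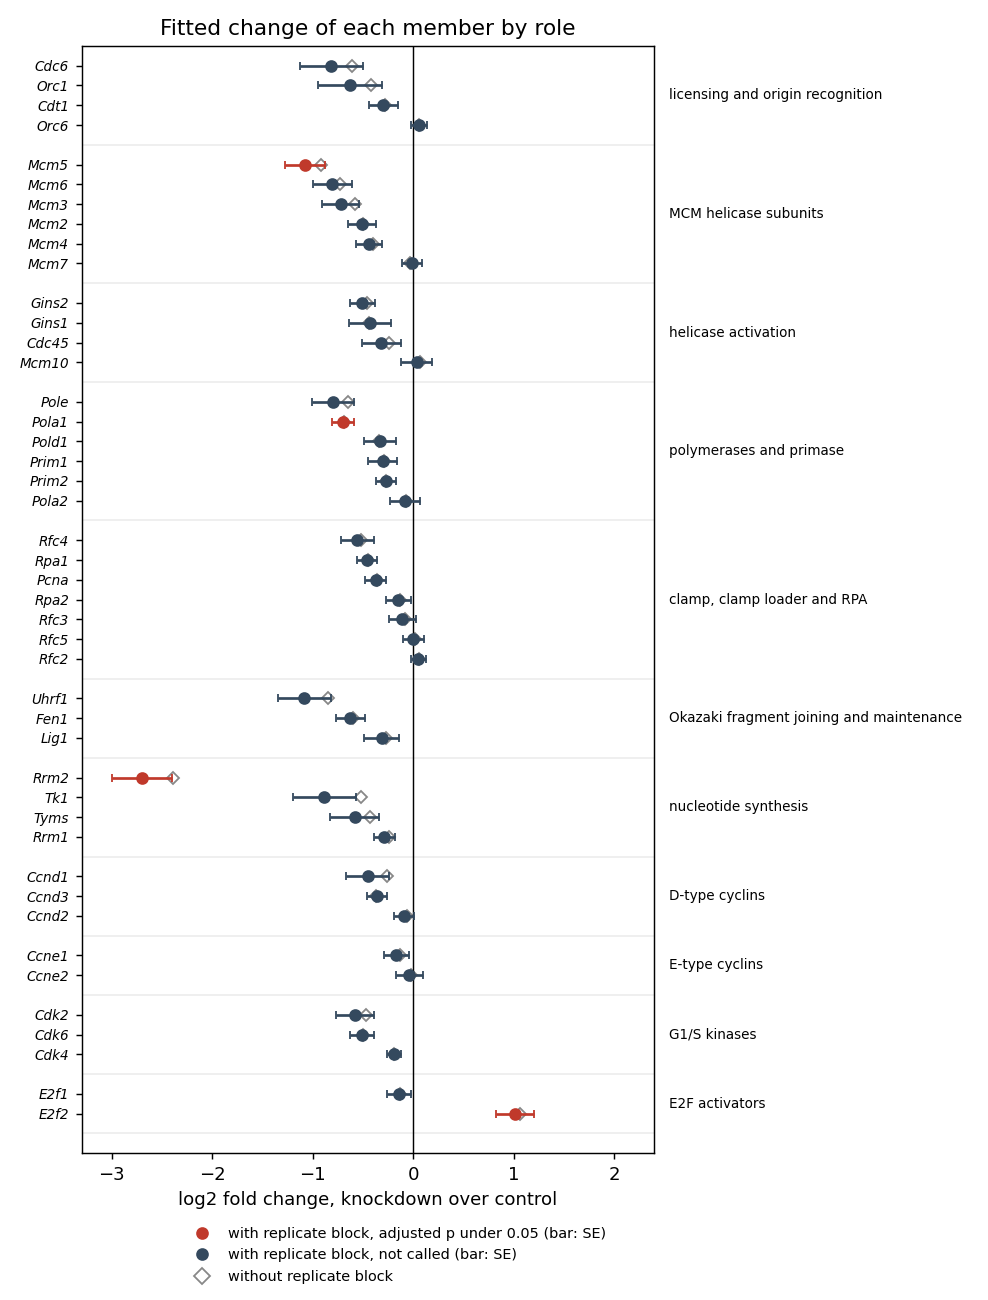
Fitted log2 fold change of each of the 44 genes, knockdown over control, grouped by role on the vertical axis, with the replicate block (filled circles, bars are the standard error, coloured where the adjusted p is under 0.05) and without it (open diamonds). Most points lie a little left of 0. Rrm2 at −2.70 and E2f2 at 1.02 are the ends of the range with the block.

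The promoters of the 4 called genes are shown because E2F factors and the CCAAT-binding factor NF-Y are the textbook regulators of S-phase genes. The sequences are RefSeq windows on build GRCm38.p6, from 250 bases before to 50 bases after the annotated start. Capitals mark exact matches to an E2F word (TTTCCCGC, TTTGGCGC, TTTCGCGC or TTTGCCGC) or to CCAAT, each read on both strands, so that GCGCCAAA and ATTGG are the reverse complements of TTTGGCGC and CCAAT.
Rrm2, chr12:24708004-24708303, plus strand: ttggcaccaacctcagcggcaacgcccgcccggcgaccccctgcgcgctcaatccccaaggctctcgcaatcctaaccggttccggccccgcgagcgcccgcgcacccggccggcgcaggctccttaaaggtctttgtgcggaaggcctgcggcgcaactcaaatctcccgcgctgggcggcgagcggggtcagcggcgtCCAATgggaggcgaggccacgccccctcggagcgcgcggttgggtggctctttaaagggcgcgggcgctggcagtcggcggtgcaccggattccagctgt
Mcm5, chr8:75109259-75109558, plus strand: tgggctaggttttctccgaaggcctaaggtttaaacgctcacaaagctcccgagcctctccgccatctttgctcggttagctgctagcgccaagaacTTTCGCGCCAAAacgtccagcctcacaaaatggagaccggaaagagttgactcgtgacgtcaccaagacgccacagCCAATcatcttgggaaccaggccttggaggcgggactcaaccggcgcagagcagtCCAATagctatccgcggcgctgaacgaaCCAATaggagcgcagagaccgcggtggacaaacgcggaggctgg
Pola1, chrX:93632106-93632405, minus strand: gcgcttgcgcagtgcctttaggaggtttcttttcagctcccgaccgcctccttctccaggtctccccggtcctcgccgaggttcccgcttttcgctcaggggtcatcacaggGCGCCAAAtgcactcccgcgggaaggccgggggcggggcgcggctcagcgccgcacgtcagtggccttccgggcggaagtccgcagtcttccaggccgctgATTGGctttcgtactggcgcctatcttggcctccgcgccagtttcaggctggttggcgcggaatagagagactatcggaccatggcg
E2f2, chr4:136172024-136172323, plus strand: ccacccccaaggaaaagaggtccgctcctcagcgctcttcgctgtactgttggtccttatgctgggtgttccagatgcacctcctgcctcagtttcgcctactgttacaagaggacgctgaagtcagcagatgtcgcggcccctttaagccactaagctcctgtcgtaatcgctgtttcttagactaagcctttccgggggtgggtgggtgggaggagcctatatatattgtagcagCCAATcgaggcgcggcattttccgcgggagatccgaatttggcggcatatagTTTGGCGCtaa

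Each of the 4 windows held CCAAT on either strand, and 3 of the 4 held an E2F word. Rrm2, which fell most, had no exact E2F word in its window and 1 CCAAT at position −50 from the start. Mcm5 had overlapping E2F words at −153 and −149 and CCAAT at −77, −22 and 7. Pola1 had an E2F word at −138, and E2f2, the gene that rose, had one at 40, past the start. A further annotated start of E2f2 had 3 CCAAT matches and no E2F word. The table of promoters held 35 of the 44 genes, with 42 windows between them. E2F words were in 33.3% of those windows, against 2.26% of all 32851 promoters in the table and 3.58% of those of genes tested. CCAAT was in 57.1% of the windows, against 37.4% of all promoters. The median log2 fold change with the block was −0.61 over the 14 genes with an E2F word and −0.32 over the 21 without one, and the ranges overlapped (−1.08 to 1.02 and −2.70 to 0.06). A match describes these letters only and is not evidence of binding.

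Among the licensing factors no gene passed the test. Cdc6, the ATPase that loads the helicase with Cdt1, was at 2.44, 6.98 and 6.06 CPM in control replicates 1 to 3 and at 0.984, 3.03 and 6.16 CPM in knockdown replicates 1 to 3. Its level was low in replicate 1 of both groups, and the groups overlapped (log2 fold change with the block −0.81, SE 0.32, adjusted p = 0.148 by edgeR). Orc6, a subunit of the origin recognition complex, was at 20.1, 20.9 and 22.8 CPM in the controls and at 20.1, 22.5 and 23.9 CPM in the knockdowns, a difference smaller than the SD of either group. Orc1 and Cdt1 had fitted values of −0.63 and −0.30 with the block.

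All 6 subunits of the MCM2-7 helicase had a fitted value below 0, and only Mcm5 passed the test. Mcm5, which sits beside Mcm2 at the gate of the ring, was at 10.4, 34.4 and 32.2 CPM in the controls and at 3.64, 15.1 and 21.9 CPM in the knockdowns. The groups overlapped because control replicate 1 was below knockdown replicates 2 and 3, while each knockdown library was below the control of its own number. The log2 fold change with the block was −1.08 (SE 0.20, adjusted p = 0.0469 by edgeR) and without it −0.92 (adjusted p = 0.667). With library totals in place of TMM factors the blocked adjusted p was 0.0518. Mcm7 was the exception among the subunits, at 23.1, 44.5 and 40.9 CPM in the controls and at 25.1, 37.9 and 43.3 CPM in the knockdowns. Its log2 fold change with the block was −0.01 (SE 0.10). The other subunits lay between these ends, with blocked values of −0.81 for Mcm6, −0.72 for Mcm3, −0.51 for Mcm2 and −0.44 for Mcm4.

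Whether Mcm5 differed from its partners was asked within each library, where scaling between libraries cancels. Mcm5 had the lowest fitted value of the subunits in these same libraries, and the p-value below does not allow for that. The log2 ratio of Mcm5 to the mean of the other MCM2-7 genes was −0.84, −0.31 and −0.29 in the controls and −1.73, −0.76 and −0.70 in the knockdowns. The ratio was lower in the knockdown of every pair, yet control replicate 1 lay below knockdown replicates 2 and 3. The mean difference was −0.58, and −0.25 without knockdown replicate 1 (exact two-sided permutation p = 0.3, adjusted to 0.4 over the 4 ratios computed; 3 against 3 libraries cannot go below 0.1).

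Of the factors that turn the loaded helicase on, none passed the test. Gins2, a subunit of the GINS complex, was at 4.68, 10.9 and 12.0 CPM in the controls and at 2.92, 7.76 and 9.47 CPM in the knockdowns. Every knockdown library was below its own control, but the groups overlapped (blocked log2 fold change −0.50, SE 0.13, adjusted p = 0.0709 by edgeR). Mcm10, needed to activate the assembled helicase, was at 7.04, 8.83 and 9.39 CPM in the controls and at 6.92, 7.41 and 12.1 CPM in the knockdowns. It had one of the few fitted values above 0 (0.07 without the block), which turned to −0.05 without control replicate 1 and to −0.23 without knockdown replicate 3. Cdc45 and Gins1 had blocked values of −0.32 and −0.43.

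The polymerase and primase genes also leaned low, and Pola1 passed the test. Pola1, the catalytic subunit of the polymerase that starts each new DNA strand, was at 11.04, 19.5 and 22.3 CPM in the controls and at 7.14, 10.4 and 15.1 CPM in the knockdowns. Each knockdown library was below its own control, and the groups overlapped only in that control replicate 1 was below knockdown replicate 3. The log2 fold change with the block was −0.70 (SE 0.11, adjusted p = 0.0403 by edgeR) and without it −0.69 (adjusted p = 0.546). With library totals in place of TMM factors the blocked adjusted p was 0.0568. Pold1, the catalytic subunit of the lagging-strand polymerase delta, was at 20.05, 32.3 and 30.6 CPM in the controls and at 18.5, 18.8 and 28.2 CPM in the knockdowns, and most of its difference lay in pair 2. Pole, of the leading-strand polymerase epsilon, had a blocked value of −0.80 (SE 0.21, adjusted p = 0.0764 by edgeR). Pola1's own partners in the primase complex had smaller values, −0.30 for Prim1, −0.27 for Prim2 and −0.08 for Pola2.

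**Figure D2:**
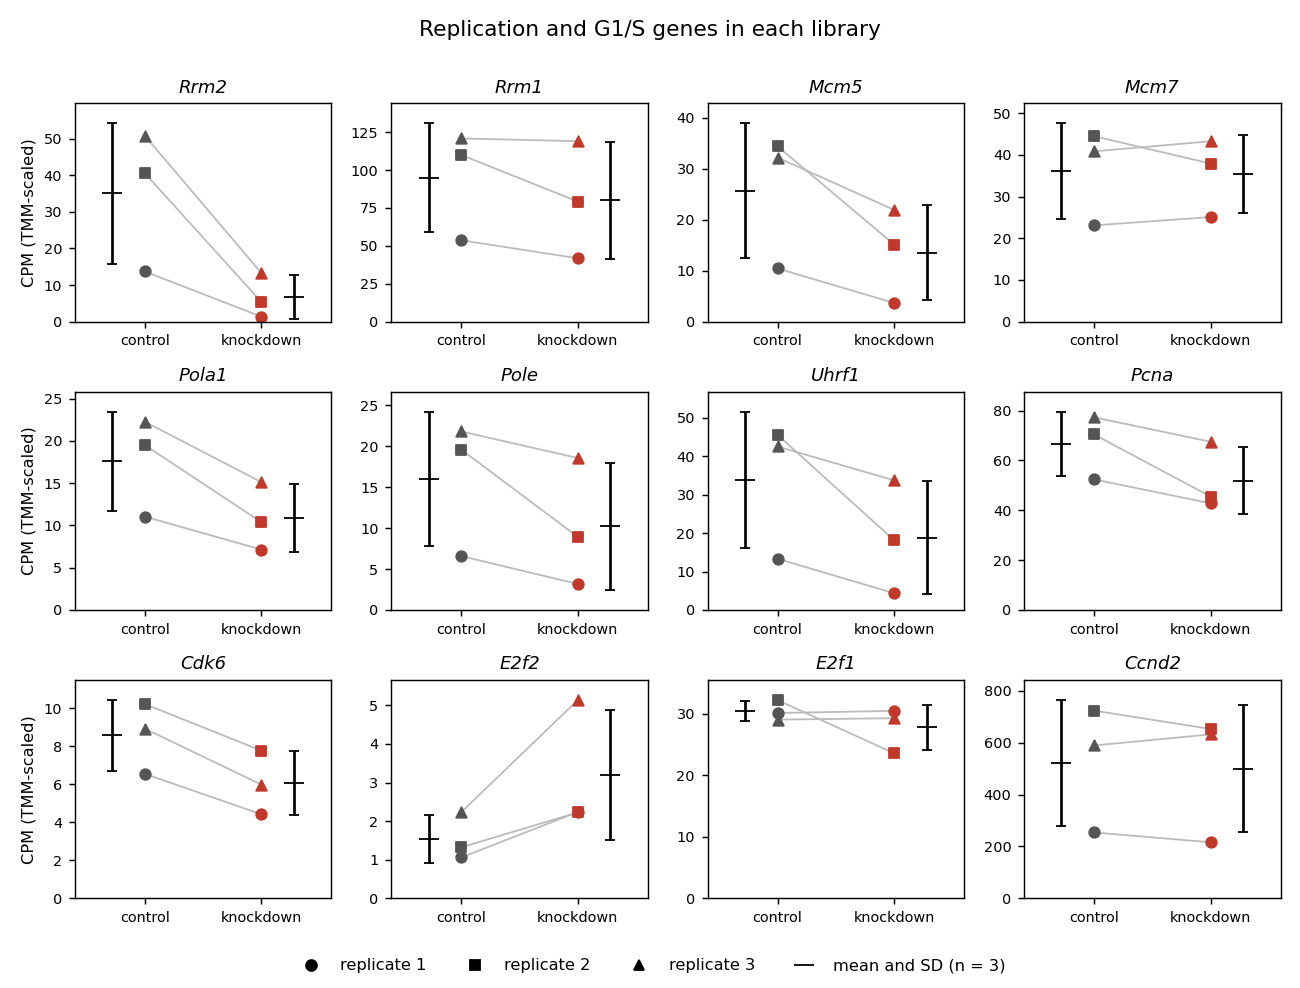
Level of selected genes in each library, in TMM-scaled CPM on a linear axis from 0. Symbols are replicate numbers joined within a pair by grey lines, and the bars beside them are the mean and SD (n = 3). Rrm2 is the panel where all knockdown points lie below all control points, from 1.34 to 13.3 CPM against 13.7 to 50.9 CPM.

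The sliding clamp, its loader and the single-strand binding protein gave 0 calls among 7 genes. Rpa1, the large subunit of the binding protein, was at 51.2, 88.4 and 81.0 CPM in the controls and at 37.3, 55.8 and 68.05 CPM in the knockdowns. It was lower in every pair and just missed the threshold (blocked log2 fold change −0.46, SE 0.10, adjusted p = 0.0574 by edgeR). The clamp Pcna had a blocked value of −0.37 and Rfc4 of −0.56, while Rfc2, Rfc3 and Rfc5, subunits of the same clamp loader, were at 0.05, −0.11 and 0.00. Rpa2 was at −0.15.

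Enzymes and cofactors that finish the new strands were lower in all 3 pairs without passing the test. Fen1, the nuclease that trims flaps between lagging-strand fragments, was at 14.8, 20.8 and 20.2 CPM in the controls and at 9.50, 10.8 and 16.4 CPM in the knockdowns (blocked log2 fold change −0.62, SE 0.15, adjusted p = 0.0654 by edgeR). Uhrf1, which brings the maintenance methyltransferase Dnmt1 to newly copied DNA, was at 13.3, 45.5 and 42.5 CPM in the controls and at 4.35, 18.1 and 33.7 CPM in the knockdowns. The difference in Uhrf1 was large in pairs 1 and 2 and small in pair 3 (blocked log2 fold change −1.08, SE 0.27, adjusted p = 0.0683 by edgeR). Lig1, the ligase that joins the fragments, had a blocked value of −0.31.

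Nucleotide supply held the gene with the largest difference. Ribonucleotide reductase makes deoxynucleotides from a large subunit, Rrm1, and a small subunit, and Rrm2 is the small subunit that cells make for S phase. Rrm2 was at 13.7, 40.6 and 50.9 CPM in the controls and at 1.34, 5.38 and 13.3 CPM in the knockdowns. The knockdowns lay below all controls, though knockdown replicate 3 and control replicate 1 were almost level. Controls averaged 35.1 ± 19.2 CPM and knockdowns 6.67 ± 6.08 CPM (SD, n = 3 each). The log2 fold change with the block was −2.70 (SE 0.30, adjusted p = 0.0282 by edgeR) and without it −2.40 (SE 0.87, adjusted p = 0.436). Within pairs the difference in log2 CPM was −3.32, −2.91 and −1.93.

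Its partner did not share that size. Rrm1 was at 53.7, 110.0 and 120.9 CPM in the controls and at 41.8, 79.2 and 119.1 CPM in the knockdowns (blocked log2 fold change −0.29, SE 0.11, adjusted p = 0.140 by edgeR). The log2 ratio of Rrm2 to Rrm1 within a library was −1.97, −1.44 and −1.25 in the controls and −4.93, −3.87 and −3.16 in the knockdowns. All 3 knockdown ratios lay more than 1 log2 unit below the lowest control ratio, with a mean difference of −2.44. The exact two-sided permutation p was 0.1, the smallest that 3 against 3 libraries allow, and 0.4 after adjustment over the 4 ratios. Rrm2 had the largest difference of the group in these same libraries, and the adjustment does not allow for that. Tk1 and Tyms, the thymidine kinase and thymidylate synthase that supply thymidylate, had blocked values of −0.89 and −0.58 with adjusted p-values of 0.127 and 0.168 by edgeR.

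Of the D-type cyclins, Ccnd1 and Ccnd2 were among the most abundant of the 44 genes and none of the 3 passed the test. Per kilobase of annotated exon, a scale that counts rarely used exons too, Ccnd2 had the highest control mean of the 44 genes at 55.5 CPM per kilobase, before Ccnd1 at 51.2, Cdk4 at 37.4 and Pcna at 27.8, and E2f2 had the lowest at 0.315. That order held in control replicates 2 and 3, while in control replicate 1 Cdk4 led at 28.7 CPM per kilobase, before Ccnd2 at 27.0, Pcna at 21.8 and Ccnd1 at 21.7. Ccnd2, a D-type cyclin of granule neuron precursors, was at 254, 723 and 589 CPM in the controls and at 216, 652 and 632 CPM in the knockdowns. Replicate number rather than group separated its libraries (blocked log2 fold change −0.09, SE 0.10, adjusted p = 0.540 by edgeR). Ccnd3 was at 56.6, 112.0 and 105.2 CPM in the controls and at 46.9, 74.0 and 90.5 CPM in the knockdowns, lower in each pair and not called (blocked log2 fold change −0.36, SE 0.10, adjusted p = 0.0803 by edgeR). Ccnd1 had a blocked value of −0.45, and pair 1 had the largest difference. The within-library log2 ratio of Ccnd1 to Ccnd2 differed by −0.36 between the groups (exact two-sided permutation p = 0.3, adjusted to 0.4), and by −0.06 without knockdown replicate 1.

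None of the E-type cyclins or kinases passed the test. Ccne1 was at 9.60, 14.5 and 17.7 CPM in the controls and at 8.24, 11.2 and 18.7 CPM in the knockdowns. Ccne2 was at 14.6, 13.6 and 14.5 CPM in the controls and at 11.7, 13.7 and 16.6 CPM in the knockdowns. Neither cyclin had the same direction in all 3 pairs. Cdk4, the partner of the D-type cyclins, was at 93.4, 135.6 and 135.7 CPM in the controls and at 85.9, 110.6 and 122.3 CPM in the knockdowns. Cdk6, its close relative, was at 6.55, 10.2 and 8.94 CPM in the controls and at 4.43, 7.78 and 5.99 CPM in the knockdowns. All 3 kinases were lower in every pair without passing the test, with blocked values of −0.19 for Cdk4, −0.51 for Cdk6 (adjusted p = 0.0639 by edgeR) and −0.58 for Cdk2.

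E2f2 went the other way. This activator E2F was at 1.06, 1.32 and 2.23 CPM in the controls and at 2.24, 2.23 and 5.14 CPM in the knockdowns. Each knockdown library was above its own control, and knockdown replicate 2 was level with control replicate 3. The log2 fold change with the block was 1.02 (SE 0.19, adjusted p = 0.0470 by edgeR) and without it 1.06 (SE 0.48, adjusted p = 0.503). E2f1, the other activator listed, was at 30.1, 32.2 and 29.1 CPM in the controls and at 30.5, 23.6 and 29.3 CPM in the knockdowns, with knockdown replicate 2 below the rest.

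How far these genes varied apart from the knockdown was the plainest pattern of the group. Replicate 1 was the lowest of the 3 libraries in both groups for 38 of the 44 genes, against 28.2% of all genes tested. The replicate-number term of the blocked fit was called for 30 of the 44, against 26.1% of all genes tested. Summed over the group, the controls were at 1087, 2342 and 2150 CPM and the knockdowns at 844, 1762 and 2056 CPM, so replicate 1 was low in both and the knockdown was below its own control in each pair. Much of each sum came from the 3 D-type cyclins, at 413, 1178 and 973 CPM in the controls and at 312, 1001 and 1002 CPM in the knockdowns. The G2/M and mitosis genes moved with the group, at 213, 649 and 817 CPM in the controls and at 87.7, 319 and 768 CPM in the knockdowns, with replicate 1 lowest in both groups for 22 of 22. With the block 1 of those 22 genes was called lower, against 5.40% of all genes tested: the proliferation marker Mki67 (log2 fold change −1.12, adjusted p = 0.0448 by edgeR). All 22 had a fitted value below 0, with a blocked median of −0.76, beside −0.37 over the 44 genes. Of the 22, 14 were lower in all 3 pairs, against 28.5% of all genes tested. The mean log2 level of the 44 genes minus that of the mitotic genes was 0.34 higher in the knockdowns (exact two-sided permutation p = 0.7, adjusted p also 0.7). Without knockdown replicate 1 the difference was −0.13, so its direction rested on that library.

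**Figure D3:**
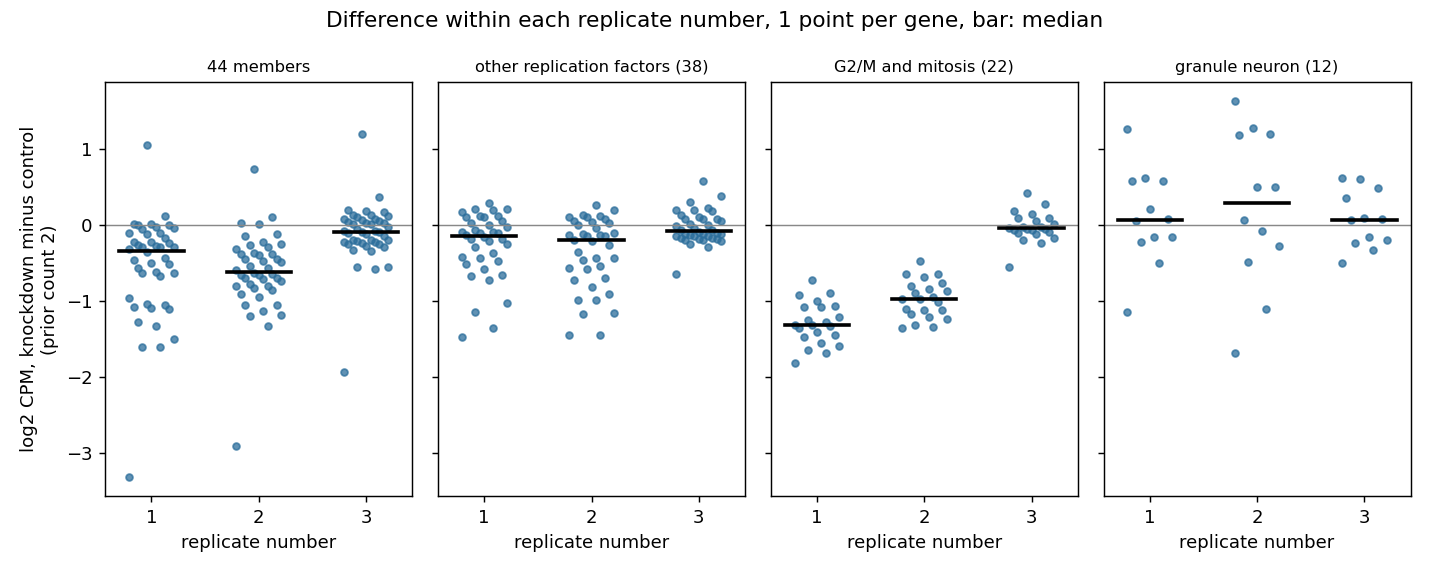
Difference in log2 CPM (knockdown minus control, prior count 2) within each replicate number, 1 point per gene and a bar at the median, for the 44 genes and for comparison lists. For the 44 genes the medians are −0.34, −0.61 and −0.09 in pairs 1, 2 and 3, so pair 3 lies nearest 0.

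The calls depended on which pairs were fitted. With pair 1 or pair 2 left out none of the 44 genes was called with the block, and with pair 3 left out 10 were, all lower, against 6.63% of all genes tested. Rrm2 then had a log2 fold change of −2.41 (adjusted p = 0.0985 by edgeR), −2.59 (adjusted p = 0.0576) and −3.13 (adjusted p = 0.0175) without pairs 1, 2 and 3. E2f2 and Pola1 lost their calls without any 1 of the pairs, and Mcm5 without pair 1 or pair 2. The fitted values stayed near those of all pairs: without pairs 1, 2 and 3 they were 0.99, 1.12 and 0.91 for E2f2, −0.73, −0.61 and −0.78 for Pola1, and −0.87, −1.03 and −1.35 for Mcm5. Each of these fits has 2 pairs in place of 3.

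Further genes of the pathway were read against the same shares, 5.40% of all genes lower and 2.58% higher with the block. Of 38 further replication factors 1 fell with the block, Dbf4, the partner that activates the origin-firing kinase Cdc7. Dbf4 was at 7.90, 18.8 and 20.3 CPM in the controls and at 3.54, 6.85 and 12.9 CPM in the knockdowns (log2 fold change −1.08, adjusted p = 0.0419 by edgeR). Of 16 further genes of nucleotide synthesis 1 fell, the deoxycytidine salvage kinase Dck, at 47.0, 30.0 and 33.1 CPM in the controls and at 30.1, 20.5 and 19.9 CPM in the knockdowns (log2 fold change −0.64, adjusted p = 0.0282 by edgeR). Dck did not share the low replicate 1 of the S-phase genes. Medians of the lists with the block were −0.12 and −0.19, beside 0.02 over all genes tested.

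Regulators of the G1/S step included genes that rose. Of 21 listed, 2 were called higher with the block and 0 lower, while 14 of the 21 had a blocked value below 0 (median −0.07). Mycn, a transcription factor of dividing granule neuron precursors, was at 41.2, 17.95 and 23.9 CPM in the controls and at 92.0, 77.5 and 52.1 CPM in the knockdowns (log2 fold change 1.46, adjusted p = 0.0376 by edgeR). Tfdp2, a DNA-binding partner of E2F proteins, was at 37.7, 29.8 and 34.5 CPM in the controls and at 50.5, 46.6 and 47.2 CPM in the knockdowns (log2 fold change 0.51, adjusted p = 0.0391 by edgeR). In both genes every knockdown library lay above every control. Of 7 inhibitors of cyclin-dependent kinases 1 fell, Cdkn1c, which encodes p57, at 65.3, 53.0 and 57.1 CPM in the controls and at 21.7, 23.9 and 39.0 CPM in the knockdowns (log2 fold change −1.09, adjusted p = 0.0483 by edgeR). Without the block none of these genes passed the adjusted test.

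Markers of other cell types moved between libraries as well. Those of pericytes and fibroblasts summed to 13141, 23156 and 26363 CPM in the controls and to 4328, 6973 and 11936 CPM in the knockdowns, and 7 of the 10 fell with the block, against 5.40% of all genes tested. By this sum the lowest library of each group was replicate 1, as for the S-phase genes, and this held too for the sums of markers of astrocytes and Bergmann glia (1356, 1634 and 3371 CPM in the controls, 886, 1020 and 3557 in the knockdowns) and of endothelial cells (82.9, 105.2 and 158.6 CPM, then 65.4, 78.5 and 177). Gene by gene, replicate 1 was lowest in both groups for 28.2% of all genes tested. The counts were 7 of 10 pericyte and fibroblast, 4 of 10 astrocyte and Bergmann glia, and 3 of 7 endothelial markers. Not every list had its lowest sums in replicate 1. Oligodendrocyte markers were lowest in replicate 2, at 1199, 200 and 1086 CPM in the controls and at 920, 165 and 848 CPM in the knockdowns. With the block 1 of 8 oligodendrocyte markers and 1 of 10 astrocyte and Bergmann glia markers were called lower, against 5.40% of all genes. Granule neuron markers were highest in replicate 1, at 6559, 5903 and 4564 CPM in the controls and at 6965, 6349 and 4756 CPM in the knockdowns. With the block 1 of the 12 granule neuron markers was called higher, against 2.58% of all genes. Granule precursor markers, which include Mycn, summed to 377, 292 and 320 CPM in the controls and to 619, 365 and 386 CPM in the knockdowns, and 2 of the 7 tested, Barhl1 and Mycn, rose. Barhl1 was at 74.2, 17.3 and 47.3 CPM in the controls and at 234, 79.7 and 97.9 CPM in the knockdowns, so the difference in the sum lay in Barhl1 and Mycn. The list did not move as one: its blocked median was 0.04, Gli1, Gli2 and Boc had blocked values of −0.26, −1.004 and −0.26, and Atoh1, the defining factor of the precursors, was too low to test (18, 1 and 3 counts in the controls and 76, 5 and 7 in the knockdowns). Microglial markers summed to 84.8, 1.08 and 30.9 CPM in the controls and to 4.36, 0.742 and 23.9 CPM in the knockdowns, with 3 of 8 genes at 0 in at least 1 library and none at 0 in all. None of the defining markers of the other lists was at 0 in every library. The part of these cells in the differences of Rrm2, Mcm5, Pola1 and E2f2 was not tested.

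**Figure D4:**
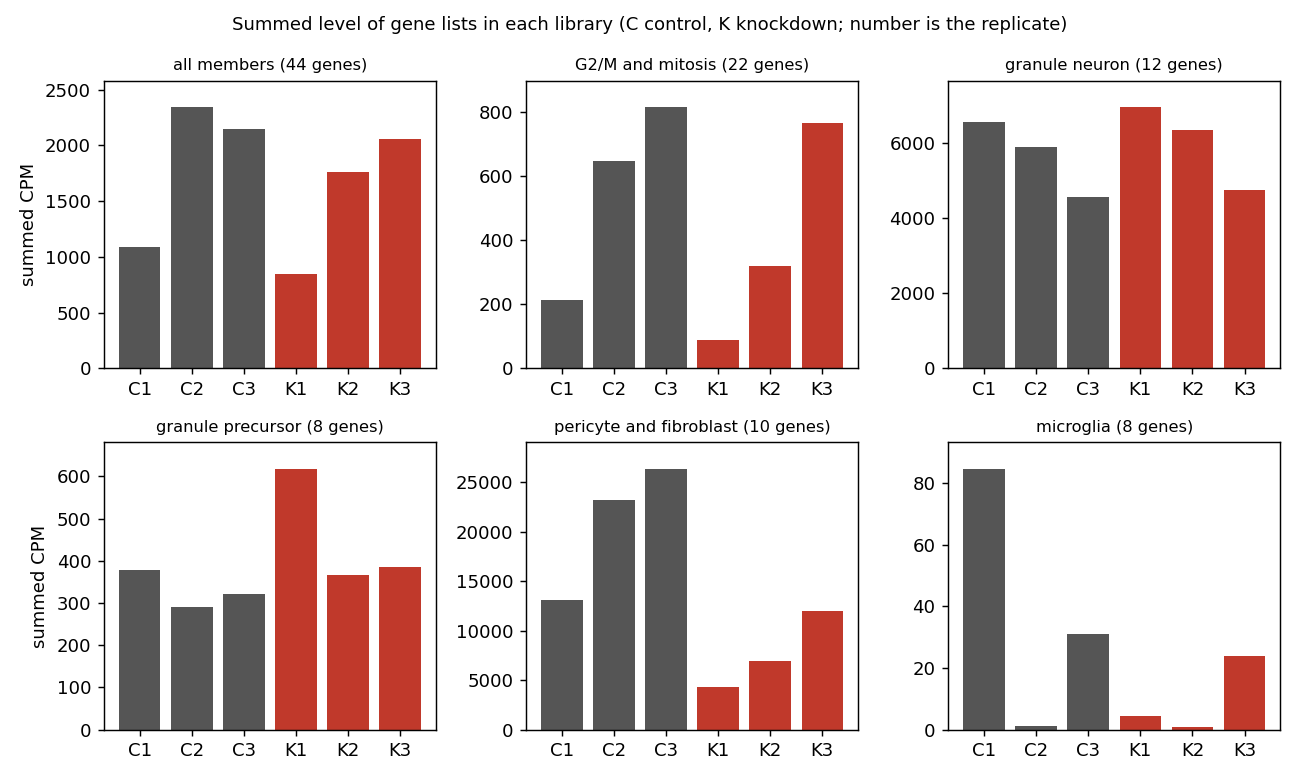
Summed level in CPM of gene lists in each library, bars from 0, C for control and K for knockdown with the replicate number. The 44 genes, the mitotic genes and the pericyte and fibroblast markers are lowest in replicate 1 of each group.

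The hairpin is printed because 1 hairpin stands for the knockdown and short matches to other transcripts can be read from its sequence. Capitals in the hairpin mark bases 8 to 14 of the sequence as printed, which was not aligned to Kdm6b. Capitals in each site mark the run of letters shared with the hairpin, inside the longest annotated 3′ UTR (GENCODE M21, build GRCm38).
Kdm6b hairpin: gttcgttACAAGTGagaactc
Rrm2, chr12:24713864-24713872, plus strand: gtacggaattcACAAGTGAGtttgagccc
Mcm5, chr8:75127751-75127759, plus strand: gcacctaatGTGAGAACTggatcattcat

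Rrm2 carried bases 8 to 14 within a shared run of 9 letters at position 632 of a UTR of 914 bases. Rrm2 did not carry bases 14 to 20, the other word searched. The 7-letter word of bases 8 to 14 was in the longest 3′ UTR of 5 of the 44 genes (11.4%) and of 11.4% of the 14020 genes searched, so the group held it no more often. Its other carriers were Gins2, Pola2, Ccnd3 and Cdk6, with blocked values from −0.51 to −0.08. Mcm5 carried bases 14 to 20 in a shared run of 9 letters, a word found in 5 of the 44 genes and in 12.99% of genes searched. The other carriers of that word were Mcm10, Rfc2, Ccnd1 and Ccne2, with blocked values of 0.03, 0.05, −0.45 and −0.04. A shared run of at least 9 letters was in 4 of the 44 genes (9.09%), Mcm5, Rfc2, Rrm2 and Cdk6, and in 6.14% of genes searched. Of these Rfc2 was not lower, with a blocked value of 0.05. The words were chosen with results of these data known, and whether the hairpin acts on Rrm2 or Mcm5 apart from Kdm6b was not tested.

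Read assignment limits some of the values. Exons of 19 of the 44 genes overlap an exon of a gene on the opposite strand in GENCODE M21, and 3 (Pcna, Tyms and Ccnd3) have a pseudogene of the same name. The kit keeps strand, but whether HTSeq was run with strand is not stated in the labels. Without strand, reads in overlapping exons may have been set aside as ambiguous (0.41% to 0.51% of the counts) or given to the wrong gene. Rrm2, Mcm5, Pola1 and E2f2 have no such overlap.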

How the data were processed

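Stranded mRNA libraries were sequenced with 50-base single-end reads, per the labels' protocols. The authors deposited raw read counts, 1 whole number for each gene and library. Trimmomatic, TopHat2, HTSeq, edgeR and DESeq2 with mouse build mm9 are named, without versions, per the submitters' processing notes. Tally rows that name no gene were left out (reads outside genes took 12.1% to 15.0% of the counts). No 2 libraries of a group agreed within sampling noise (chi-square of 182 to 397 for each degree of freedom).

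Counts were fitted in edgeR 4.0.16 (R 4.3.3) after filterByExpr (minimum count 10, minimum total 15) with TMM factors. The quasi-likelihood F test was adjusted by the Benjamini-Hochberg method over all 15731 genes tested, at 0.05, and an SE is the size of the log2 fold change over the root of its F statistic. Log2 CPM used a prior count of 2. The planned fit has no replicate term. Deviations from group means correlated across genes at 0.772, 0.709 and 0.701 between libraries of the same number and at −0.532 to −0.135 between different numbers. So by the data, not the labels, numbers pair the libraries and the blocked value is printed. Over the S-phase genes described here alone, the same numbers correlated at 0.944, 0.861 and 0.867. Different numbers were not all negative there: control 2 with knockdown 3 gave 0.659 and control 3 with knockdown 2 gave 0.382. The remaining values ran from −0.873 to −0.727, all with replicate 1. For these genes the numbers thus set replicate 1 apart more clearly than replicates 2 and 3 from each other. The code was tested on simulated counts.

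The members and lists were chosen with earlier results of these data known. Values in every library are given for genes called in either fit, the 3 highest and 3 lowest fold changes, and in each role the most abundant gene and that with the smallest blocked p. From each further pathway list the called genes are given. For the cell type lists called genes are given as counts, with only Barhl1 and Mycn named. RefSeq and GENCODE were matched to the table by symbol only. Other settings tried were upper-quartile and RLE factors, library totals alone, no filter, a mean of at least 5 CPM, DESeq2 1.42.0, limma-voom 3.58.1, a prior count of 0.5 for ratios, and leaving out each library or pair.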

Additional observations from a re-analysis of the deposited data

How the results depend on the processing

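Without the replicate block the number of genes called, 1 in the planned fit, was 0 with library totals alone, 0 with each library left out in turn and 568 in DESeq2, and none of the 44 genes was called under any of the 13 alternatives. With the replicate block 1256 genes were called, 4 of them among the 44. These counts were 1342 and 4 with RLE factors, 1350 and 4 with upper-quartile factors, 1276 and 2 (Rrm2 and E2f2) for unscaled library totals, 1598 and 4 when no gene was filtered out, 1439 and 3 at a mean of at least 5 CPM (E2f2 not tested), 3440 and 19 in DESeq2, and 1394 and 4 in limma-voom. With pair 1, 2 or 3 left out they were 0 and 0, 53 and 0, and 1272 and 10. The causes of these differences were not tested.

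The median over the 44 genes (40 at a mean of at least 5 CPM) ran from −0.59 without knockdown replicate 3 to −0.11 without knockdown replicate 1 over the 24 alternatives. The single genes refitted under each of them were Rrm2, Mcm5, Pola1, E2f2, Uhrf1, Mcm10 and Orc6. Of these Mcm10 reversed, as did the ratio of the 44 genes to mitotic genes: Mcm10 ran from −0.23 to 0.22 with 1 library left out and was −0.14 in the blocked fit without pair 3, and the ratio ran from −0.13 to 0.76. Library totals alone moved the median of all genes to 0.09 and that of the 44 genes to −0.27. The lowest count of any of the 44 genes was 34, and 3 pairs set the precision.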
